A study of Rattus norvegicus with 72 samples.

Results

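Gene expression in rat medial collateral ligament 10 days after the ligament had been severed was set against that in ligament of rats that were not manipulated. The members are the columns of severed day 10 replicates 1 to 5 and of unmanipulated replicates 1 to 5 in the deposited array matrix, 10 of the 72 samples of the series, all labelled with the dye Cy5. All animals were adult male Sprague-Dawley rats, an outbred laboratory strain, and each column held total RNA of the ligament of 1 rat on an Agilent rat whole-genome array. The severed group had been operated on under isoflurane anaesthesia with buprenorphine, an opioid, for analgesia, whereas the unmanipulated group had no operation and none of these drugs before its tissue was taken, so the comparison holds the whole procedure and not the severed ligament alone. By identical flags on every spot, the 5 severed day 10 samples shared their arrays with sham samples in the other dye, Cy3, while no unmanipulated sample shared an array with any of these, so this difference and the group cannot be told apart. In such bulk samples fewer cells of a type and less RNA per cell cannot be told apart either.

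The medial collateral ligament is a band of type I collagen at the inner side of the knee, kept by ligament fibroblasts that also make small leucine-rich proteoglycans, the proteins that bind collagen fibrils and govern their assembly. After a tear such a ligament heals through an inflammatory phase, a phase in which fibroblasts multiply and lay down matrix, and a long phase of remodelling, in which proteases and their inhibitors rebuild the scar. Tenomodulin (Tnmd), thrombospondin 4 (Thbs4), cartilage oligomeric matrix protein (Comp) and fibromodulin (Fmod) are defining genes of tendon and ligament cells, and all 4 were above the negative controls in all 10 samples.

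Levels below are log2 of quantile-normalised intensity, with values under an intensity of 50 set to 50 (5.64 on this scale), and differences are severed day 10 minus unmanipulated on that scale with their standard error (SE). Of 14775 genes tested with limma, 0.941% (139 genes) were higher in severed ligament and 654 were lower (4.43%) at an adjusted p under 0.05, 5.37% in all, and the median of all genes was -0.19. The groups' values did not overlap for 2.45% of genes in the higher and 5.5% in the lower direction. Among the genes with a usable name, 73 rose and 335 fell. Before normalisation the median intensity of a column lay between 17 and 83 in unmanipulated ligament and between 22 and 34 in severed replicates 1 to 4, but at 220 in severed replicate 5, in which 75.8% of gene spots exceeded the negative controls against 19.3% to 30.4% in the other 4. In the unmanipulated columns 37.4% to 52.4% of gene spots did so. Counts below of samples above background have to be read beside these shares of all spots. Severed samples correlated less with each other than unmanipulated samples did (mean Spearman correlation 0.56 to 0.67 against 0.82 to 0.87). Severed replicates 2, 3 and 5 correlated better with the unmanipulated samples (0.76, 0.73 and 0.59) than with their own group (0.66, 0.67 and 0.56). Without severed replicate 5, 390 genes were higher (3.25%) and 881 lower (7.34%). Signal was also weaker toward an edge of some arrays, mostly that of severed replicate 4. Of the genes named by rule 24 lie in that edge, and these are marked below as edge genes where a value at the lowest level bears on the result.

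The scale decided how many genes counted as higher. With columns scaled to a common 75th percentile the median of all genes moved by -0.46 and the split became 128 higher and 2818 lower, with a common median it moved by -1.08 and the split became 11 and 5656, and with the authors' series matrix it moved by -1.28 and the split became 25 and 4673. Taken relative to these shifts, 44 of 48 named falls and 5 of 20 named rises passed with the 75th percentile, 41 of 48 and 1 of 20 with a common median, and 41 of 43 and 3 of 20 with the series matrix, and none of these turned its sign. Without that allowance Igf1, Thbs2 and Lum turned negative with the 75th percentile, and 8 and 12 of the 20 named rises did so with the other scalings. The rises below are given on the quantile-normalised scale. Their size and, without allowance for the shifts, the sign of some depended on that scale. Relative to the shifts, Dagla alone passed under all 3 other scalings. Ocm and Caskin2 passed with the 75th percentile and the series matrix, and Cdkn1c and Prr3 with the 75th percentile only.

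The genes that rose most had levels in severed ligament at 3.46 to 5.55 times those of unmanipulated ligament, a span far narrower than that of the falls. Kazald1, a secreted protein of the insulin-like growth factor binding protein superfamily, stood at 12.77, 12.46, 12.81, 12.35 and 11.75 in severed replicates 1 to 5 and at 10.17, 10.25, 9.53, 10.05 and 10.69 in unmanipulated replicates 1 to 5. All 5 severed values lay above all 5 unmanipulated ones, a log2 difference of 2.29 ± 0.32 (SE; limma, adjusted p = 0.0034). Cdkn1c, the cell cycle inhibitor p57, stood at 11.78, 11.98, 12.08, 11.64 and 12.31 against 10.70, 9.92, 9.20, 9.77 and 9.07, a difference of 2.23 ± 0.34 (limma, adjusted p = 0.00512). Its severed values lay within a narrow band and its other probes moved the same way (1.19 and 1.31).

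Ocm, which encodes the calcium-binding protein oncomodulin, rose by 2.47 ± 0.55 (limma, adjusted p = 0.0266), from 7.22 to 9.28 in unmanipulated to 9.65 to 12.33 in severed samples. Caskin2, a scaffold protein, rose by 2.36 ± 0.46 and Mcm3ap, a protein of messenger RNA export, by 2.17 ± 0.42. Prr3 rose by 2.00 ± 0.40, Fam180a by 1.93 ± 0.31 and Dagla, a lipase that makes an endocannabinoid, by 1.84 ± 0.37. Vkorc1, the vitamin K epoxide reductase that recycles vitamin K for the carboxylation of proteins, stood at 13.78 to 14.77 in severed and 11.77 to 13.16 in unmanipulated samples and rose by 1.93 ± 0.34. Fkbp7, a prolyl isomerase of the endoplasmic reticulum, rose by 1.79 ± 0.30, and Plac9, an edge gene for a small secreted protein, by 1.85 ± 0.36. In each of these genes the groups did not overlap, as the rule that named them required. With 5 against 5 samples that alone fixes the exact two-sided permutation p at 0.00794, the smallest possible, so this p adds no support. The call of Ocm was lost without unmanipulated replicate 1, 2 or 3 or severed replicate 4, and those of Caskin2 and Prr3 without unmanipulated replicate 3.

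**Figure D1:**
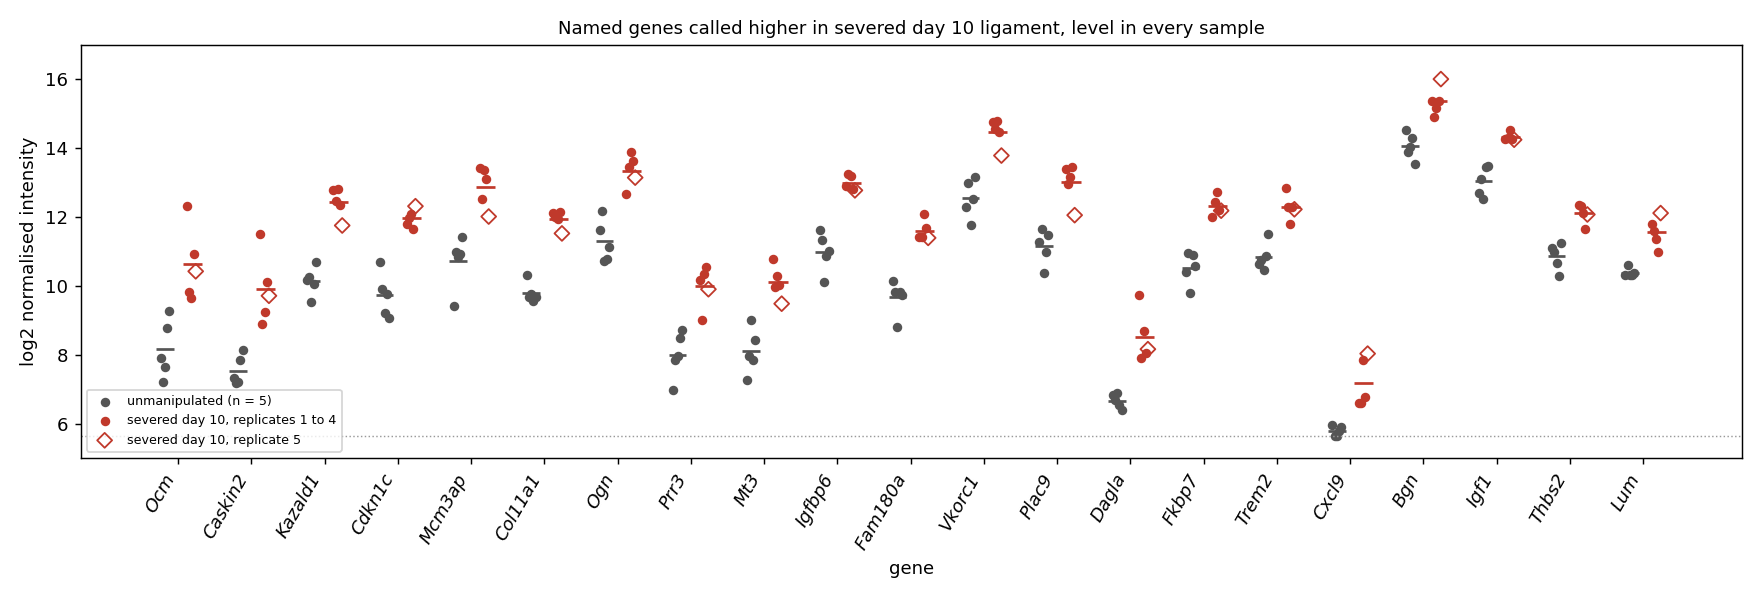
Level (log2 normalised intensity) of the named genes called higher in severed day 10 ligament, in each of 5 unmanipulated (grey) and 5 severed (red, replicate 5 as an open diamond) samples. Short lines are group means and the dotted line is the lowest level, 5.64. The groups do not overlap in any gene shown.

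Matrix genes that coat or organise collagen fibrils were higher in part. Among 10 small leucine-rich proteoglycans tested 3 rose and none fell, with a median difference of 1.22 that stayed positive relative to the shift under the other scalings (0.51 to 0.79) but turned to -0.36 and -0.77 without that allowance under median scaling and in the series matrix. Ogn, osteoglycin, stood at 12.65, 13.45, 13.87, 13.61 and 13.14 in severed replicates 1 to 5 and at 11.62, 12.17, 10.71, 10.79 and 11.14 in unmanipulated replicates 1 to 5, a rise of 2.06 ± 0.36 (limma, adjusted p = 0.00893). Every severed value of Ogn was above every unmanipulated one. Bgn, biglycan, rose by 1.30 ± 0.30 (limma, adjusted p = 0.0319) with 1 severed sample saturated, and Lum, lumican, by 1.19 ± 0.28 (limma, adjusted p = 0.0313). Lum was nearly constant in unmanipulated ligament, at 10.31 to 10.61, and lay at 10.98 to 12.11 in severed ligament. Fmod did not overlap between the groups (0.71 ± 0.26, limma, adjusted p = 0.134), with 4 severed and 3 unmanipulated samples saturated. Aspn, asporin, stood at 0.89 ± 0.52 and overlapped. Omd, osteomodulin, stood at 1.26 ± 0.59, with 4 severed samples at 11.94 to 12.71 and replicate 5 at 9.70, inside the unmanipulated range of 9.69 to 11.57. Without severed replicate 5 Omd passed at 1.80, and 5 of 10 members rose. The calls of Lum and Bgn were each lost on leaving out any of several single samples: Lum without unmanipulated replicate 1, 3, 4 or 5 or severed replicate 1, Bgn without unmanipulated replicate 3, 4 or 5 or severed replicate 1, 3 or 4.

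Of the 9 fibrillar collagen genes tested 1 rose, against a median of 0.66 for the list. Col11a1, a minor fibrillar collagen that sets fibril width, stood at 12.11, 12.01, 11.94, 12.15 and 11.52 in severed replicates 1 to 5 and at 10.31, 9.66, 9.75, 9.57 and 9.68 in unmanipulated replicates 1 to 5. The difference was 2.15 ± 0.27 (limma, adjusted p = 0.00194), and both groups were tight. A dimmer probe for the same gene with a mean of 8.06 moved the other way (-1.10), so the rise holds for the brightest probe alone. The main collagens of ligament differed less: Col1a1 stood at 14.84 to 15.65 in severed and 14.03 to 15.21 in unmanipulated samples (0.66 ± 0.30, limma, adjusted p = 0.216), and Col3a1 at 0.05 ± 0.24 was saturated in all 5 unmanipulated and 2 severed samples, so that its difference is only bounded by the scanner. Col5a1 (0.48 ± 0.69) and Col4a1, of basement membranes (0.42 ± 0.41), overlapped, and in both severed replicate 5 was the one high sample, at 13.18 and 12.63 where the other 4 did not exceed 9.89 and 10.85. Col12a1 stood at 0.36 ± 0.55 and was dim in both groups.

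None of 18 collagen processing enzymes passed (median 0.23). Serpinh1, the collagen chaperone HSP47, stood at 0.26 ± 0.39 and Plod2, a lysyl hydroxylase, at -0.18 ± 0.49. Lox, the lysyl oxidase that cross-links collagen and an edge gene, lay at 13.75 to 14.33 in severed replicates 1 to 4, at the lowest level of 5.64 in replicate 5, and at 12.82 to 14.06 in unmanipulated samples. Dcn, decorin, another edge gene, was at the lowest level in severed replicate 5 and in unmanipulated replicates 1 and 5 and at 14.53 to 15.86 elsewhere apart from severed replicate 4 (9.85), so no difference could be read from these probes. A dimmer probe for Lox, with a mean of 10.36, stood at -0.53.

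Tnmd, the membrane protein that marks mature tendon and ligament cells, was higher in 4 of 5 severed samples. It stood at 14.55, 14.71, 14.85, 14.61 and 11.54 in severed replicates 1 to 5 and at 12.03, 12.48, 11.40, 12.09 and 12.18 in unmanipulated replicates 1 to 5. Replicate 5 thus lay within the unmanipulated range, and the difference of 2.02 ± 0.59 did not pass (limma, adjusted p = 0.0691). Without that sample it was 2.65 (limma, adjusted p = 0.000837). Comp overlapped at 0.90 ± 0.34, Thbs4 was saturated in all 5 unmanipulated and 3 severed samples (0.03 ± 0.24), and Egr1, a transcription factor of tendon cells that is also an immediate early gene, stood at 0.51 ± 0.48. Prg4, lubricin, the lubricant of joint surfaces and tendon sheaths, fell from 14.33 to 15.76 in unmanipulated (1 sample saturated) to 12.62 to 13.82 in severed ligament (-1.56 ± 0.36, limma, adjusted p = 0.029), a call lost without unmanipulated replicate 1, 3 or 4 or severed replicate 3. Of 15 ligament and tendon markers tested 1 rose, Ogn, and 1 fell, Prg4, with a median of 0.70. Without severed replicate 5, 5 of 14 rose, namely Ogn, Tnmd, Kera, Cilp and Vit.

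Provisional matrix genes split. Spp1, osteopontin, a secreted phosphoprotein of healing tissue and of bone, was at 8.32, 10.24, 9.13, 7.12 and 5.64 in severed replicates 1 to 5 and at 13.61, 12.68, 13.37, 13.61 and 14.07 in unmanipulated replicates 1 to 5. It fell by 5.38 ± 0.72 (limma, adjusted p = 0.0029) with a wide gap between the groups, and 3 of 5 severed samples were above background. Thbs2, thrombospondin 2, which limits vessel growth, rose by 1.24 ± 0.29 (limma, adjusted p = 0.0297), from 10.28 to 11.24 up to 11.64 to 12.35, but lost the call without unmanipulated replicate 1, 3 or 4 or severed replicate 1 or 3. Cthrc1, a collagen triple helix protein of injured tissue, lay at 9.50 to 14.07 in severed and 8.51 to 9.28 in unmanipulated samples with no overlap (2.14 ± 0.72, limma, adjusted p = 0.105). Its highest value was that of severed replicate 5, and it passed without that sample at 1.43. Fn1, fibronectin, stood at -0.25 ± 0.26, and Postn, periostin, an edge gene, at 0.03 ± 1.02, with severed values from 6.74 to 13.90. These 4 and Spp1 belong to a list of 14 tested, of which 1 rose and 1 fell, with a median of -0.11. Fbn1, the microfibril protein fibrillin 1, stood at 1.05 ± 0.41. None of 10 elastic fibre genes passed, with a median of 0.74 that fell to -0.08 relative to the shift with the 75th percentile.

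Growth factor genes gave few calls. Igf1, insulin-like growth factor 1, a mitogen for fibroblasts that also drives matrix synthesis, stood at 14.25, 14.29, 14.52, 14.25 and 14.24 in severed replicates 1 to 5 and at 12.70, 13.10, 12.51, 13.44 and 13.49 in unmanipulated replicates 1 to 5. The severed samples were nearly alike, and Igf1 rose by 1.26 ± 0.28 (limma, adjusted p = 0.0263). The call was lost without unmanipulated replicate 1 or 3 or severed replicate 3. Another probe of the gene, with a mean of 9.68, stood at 1.23. The 2 dimmest probes, with means of 6.30 and 5.69, moved the other way (-1.05 and -0.10). Igfbp6, a binding protein with a preference for IGF2, was at 12.77 to 13.24 in severed against 10.12 to 11.63 in unmanipulated ligament, a rise of 1.99 ± 0.32 (limma, adjusted p = 0.00599). Igfbp5, which binds IGF in the matrix, lay at 10.47 to 11.48 in severed replicates 1 to 4, at 7.11 in replicate 5 and at 7.58 to 7.97 in unmanipulated ligament. Its difference was 2.23 ± 0.66 (limma, adjusted p = 0.0749), and it was chosen for mention after its values were seen. Igf2 stood at -0.46 ± 0.38. Of 7 IGF pathway genes 2 rose and none fell, with a median of 1.26, which was -0.04, -0.73 and -0.95 under the 3 other scalings before and 0.34 to 0.42 after allowance for their shift.

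In the TGF-beta and BMP pathway 0 of 10 genes passed (median 0.53). Inhba, the activin A subunit and an edge gene, did not overlap, at 9.83 to 10.78 in severed and 7.49 to 9.61 in unmanipulated samples (1.46 ± 0.40, limma, adjusted p = 0.0566), and Tgfb1 was dim in both groups (0.33 ± 0.47). Over all genes 3356 had an unadjusted limma p under 0.05. Vegfa, the vessel growth factor, stood at -0.59 ± 0.70 over 4 severed samples, the value of replicate 4 having been left out as misread. Itgb1, a collagen-binding integrin subunit, stood at -0.26 ± 0.51.

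Metallothioneins are small cysteine-rich proteins that bind zinc and copper, and Mt1 is induced by metals and by glucocorticoid hormones, whereas Mt3 is known mainly from brain. The 2 genes lie close together on rat chromosome 19 and moved in opposite directions on the quantile-normalised scale. The 250 bases upstream of each start site are given because both promoters hold the core of the metal response element, the site through which metals act on metallothionein genes, searched for as TGCACNC or TGCGCNC on both strands and shown in capitals. The sequences are RefSeq's, assembly GRCr8, minus strand, chr19:10832976-10833225 for Mt1 and chr19:10856081-10856330 for Mt3.
Mt1: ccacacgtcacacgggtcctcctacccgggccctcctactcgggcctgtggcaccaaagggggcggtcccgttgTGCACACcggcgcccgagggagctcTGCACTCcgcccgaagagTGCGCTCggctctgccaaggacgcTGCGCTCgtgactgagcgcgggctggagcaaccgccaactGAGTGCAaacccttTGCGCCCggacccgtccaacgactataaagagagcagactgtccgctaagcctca
Mt3: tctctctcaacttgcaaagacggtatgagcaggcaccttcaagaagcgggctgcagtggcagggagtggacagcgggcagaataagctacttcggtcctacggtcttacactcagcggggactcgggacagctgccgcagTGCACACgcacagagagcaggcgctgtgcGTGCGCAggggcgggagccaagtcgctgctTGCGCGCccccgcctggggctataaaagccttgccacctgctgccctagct
The Mt1 stretch held 6 matches and the Mt3 stretch 3. Of 33469 rat promoters of the same length 20.6% held at least 1 match and 1.17% held 3 or more. A match is a run of letters and not a measured site.

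Mt1 was at 9.87, 9.20, 8.77, 8.55 and 9.74 in severed replicates 1 to 5 and at 13.20, 13.49, 13.75, 13.53 and 12.49 in unmanipulated replicates 1 to 5. The groups were far apart and Mt1 fell by 4.07 ± 0.36 on the log2 scale, a 16.8-fold lower level (limma, adjusted p = 0.000454), and no alternative setting ended the call. Mt3 was at 10.77, 9.96, 10.27, 10.02 and 9.48 against 7.26, 7.95, 9.02, 7.84 and 8.43, a rise of 2.00 ± 0.38 (limma, adjusted p = 0.0121). Relative to the shifts Mt3 kept its sign under the 3 other scalings (1.55, 1.48 and 1.46) but did not pass. Further genes that glucocorticoids induce fell: Fkbp5, a chaperone of the glucocorticoid receptor (-1.45 ± 0.33, groups not overlapping), Cebpd, a transcription factor (-1.62 ± 0.39), and Angptl4, an inhibitor of lipoprotein lipase (-1.61 ± 0.37), with adjusted limma p of 0.0288, 0.0368 and 0.0291. In the list of metallothioneins and glucocorticoid targets 4 of 7 fell and 1 rose, with a median of -1.45. Each of Fkbp5, Cebpd and Angptl4 lost its call without unmanipulated replicate 2, 3 or 4 or severed replicate 1 or 3. Fkbp5 and Cebpd also lost it without unmanipulated replicate 1, Angptl4 without unmanipulated replicate 5, and Cebpd and Angptl4 without severed replicate 4.

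Skeletal muscle genes made up nearly all of the largest falls. Of 20 muscle markers tested 15 fell, all 20 had negative differences, and the median was -4.29. Myh1, a fast myosin heavy chain, was at 5.89, 6.71, 8.27, 9.65 and 13.43 in severed replicates 1 to 5 and at 15.86, 15.99, 15.99, 14.85 and 13.85 in unmanipulated replicates 1 to 5, with 3 unmanipulated samples saturated. The severed samples spread over a far wider range than the unmanipulated ones, replicate 5 being nearest to them, and Myh1 fell by 6.52 ± 1.17 (limma, adjusted p = 0.00965). Tnnc2, fast troponin C, was at 8.62, 8.51, 8.67, 9.89 and 12.54 against 15.57, 14.88, 15.82, 14.51 and 14.64, with 3 unmanipulated samples saturated, and fell by 5.44 ± 0.70 (limma, adjusted p = 0.00231). Where unmanipulated samples were saturated, as in these genes, their levels are lower bounds and the fall may be understated. Ckm, muscle creatine kinase, was at 6.68, 5.67, 7.26, 10.48 and 10.57 against 14.77, 13.59, 15.31, 12.37 and 11.55, and fell by 5.39 ± 1.04 (limma, adjusted p = 0.014). In each, severed replicates 4 and 5 were the highest of their group and unmanipulated replicate 5 or 4 the lowest of its own.

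Severed replicate 5 was also the highest of its group in 7 further sarcomere genes that fell, Actn3 (-5.98 ± 1.09, edge gene, 3 unmanipulated samples saturated), Mybpc1 (-5.41 ± 0.90, edge gene), Myl1 (-5.32 ± 0.79, edge gene), Acta1, skeletal actin (-5.02 ± 0.85, edge gene), Myl11 (-4.59 ± 0.83, 4 saturated), Tnni2 (-3.71 ± 0.52, 3 saturated) and Ttn, titin (-4.85 ± 0.68). Further falls were those of Ckmt2, the mitochondrial creatine kinase (-6.54 ± 1.04), Ampd1, muscle adenylate deaminase (-6.30 ± 0.76), Abra (-6.03 ± 0.71), Cox8b, a respiratory chain subunit of striated muscle (-5.97 ± 0.87), Asb2 (-5.72 ± 0.73), Pdlim3 (-5.69 ± 0.67), Trdn, triadin of the calcium release complex (-5.57 ± 0.87), and Myot, myotilin (-5.28 ± 0.78). Des, desmin, the intermediate filament of muscle cells, fell by 3.90 ± 0.56. Their adjusted limma p lay between 0.00176 and 0.01, no groups overlapped, and 1 to 4 of the 5 severed samples were above background in all but Myl11 and Tnni2, where all 5 were. Dimmer probes of some of these genes moved less. Those of Cox8b stood at -1.62 and -1.45, those of Trdn at -4.3 and -0.01, and that of Mybpc1 at -2.61. A probe of Ampd1 with a mean of 5.85, near the lowest level, stood at 0.11. Ttn had 6 other probes, of which 1 dim probe moved the other way, and without severed replicate 1 another probe of the gene was brightest and gave -1.58, not a call. The other muscle genes named here kept their calls without any single sample.

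The summed intensity of the 20 muscle markers was 8150, 3650, 9710, 20800 and 79800 in severed replicates 1 to 5 and 446000, 305000, 522000, 230000 and 132000 in unmanipulated replicates 1 to 5. The ranges did not meet, and each group spanned several-fold within itself. All 20 markers had a sample above background. Without severed replicate 5 the median of the list was -5.03 and 17 of 20 fell. The part that muscle beside the ligament had in these differences was not tested.

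**Figure D2:**
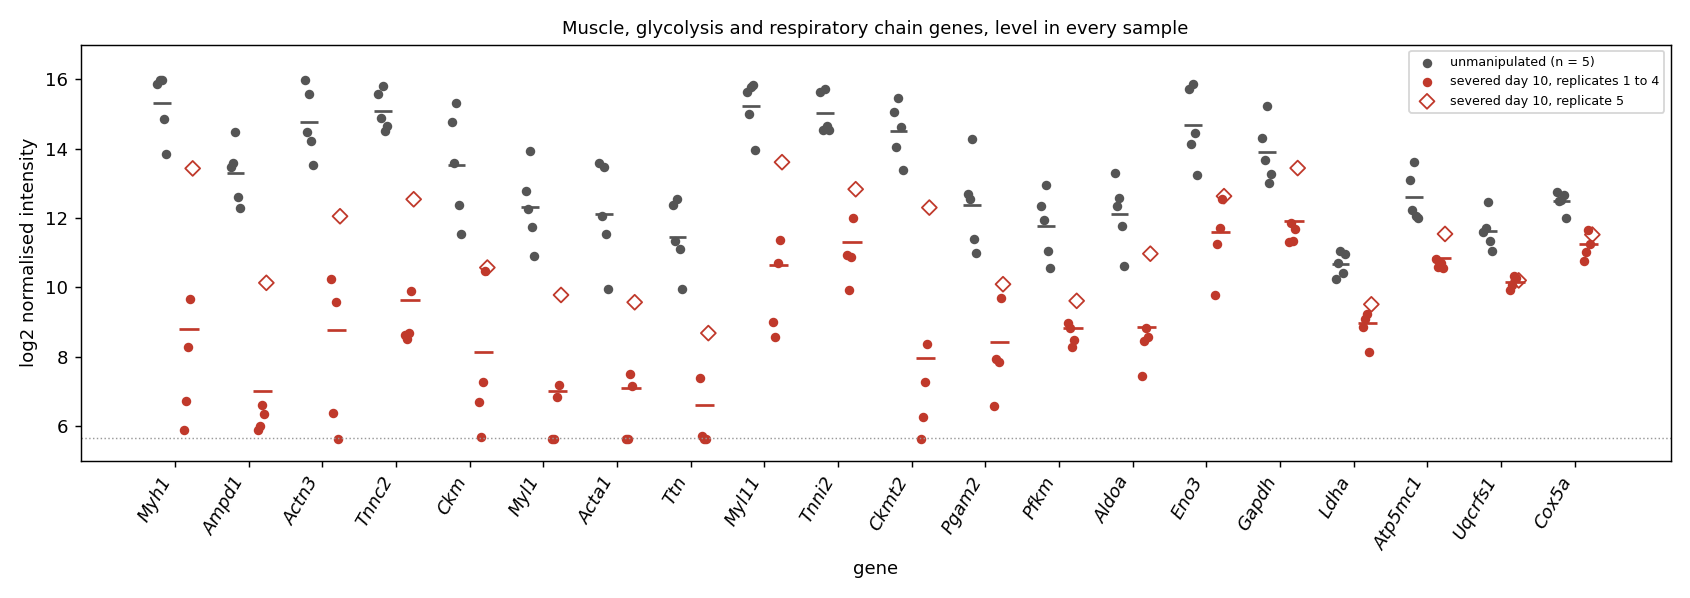
Level (log2 normalised intensity) of 20 genes of muscle contraction, glycolysis and the respiratory chain in each of 5 unmanipulated (grey) and 5 severed day 10 (red, replicate 5 as an open diamond) samples. Short lines are group means and the dotted line is the lowest level, 5.64. Severed replicate 5 is the highest of its group in most of these genes.

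Part of the genes of energy metabolism fell as well. Of 17 glycolysis genes tested 7 fell and 1 rose (Pfkl, 1.44 ± 0.37, limma, adjusted p = 0.0459), with a median of -1.35. The largest falls were those of the muscle forms Pgam2, phosphoglycerate mutase (-3.95 ± 0.75), Eno3, beta enolase (-3.09 ± 0.63, 2 unmanipulated samples saturated), Aldoa, aldolase A (-3.26 ± 0.64), and Pfkm, muscle phosphofructokinase (-2.93 ± 0.46). Ldha, lactate dehydrogenase A, which most tissues express, stood at 8.85, 9.10, 9.24, 8.13 and 9.51 in severed replicates 1 to 5 and at 10.24, 10.70, 11.05, 10.40 and 10.95 in unmanipulated replicates 1 to 5. These groups did not overlap, and Ldha fell by 1.70 ± 0.32 (limma, adjusted p = 0.0129). Gapdh, often taken as a reference gene, fell by 1.97 ± 0.51 (limma, adjusted p = 0.0478), but severed replicate 5 at 13.44 lay within the unmanipulated range and the call was lost on leaving out any single sample except that one. Aldoa and Eno3 lost their calls without unmanipulated replicate 3.

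Of 18 genes of oxidative phosphorylation 4 fell, all 18 had negative differences, and the median was -1.35. Among them were Atp5mc1, a subunit of ATP synthase (-1.76 ± 0.38), Uqcrfs1, the Rieske protein of complex III (-1.47 ± 0.30), and Cox5a of complex IV (-1.25 ± 0.28, edge gene), with adjusted limma p between 0.0184 and 0.0283 and no overlap of the groups. Cox4i1 overlapped at -0.97 ± 0.47. Uqcrfs1 kept its call without any single sample, Atp5mc1 lost it without unmanipulated replicate 1 or 3, and Cox5a without unmanipulated replicate 1, 2, 3 or 4 or severed replicate 1 or 4. In unmanipulated ligament the summed intensity of the muscle markers, of the glycolysis genes (165000, 124000, 66200, 64800 and 55300) and of the oxidative phosphorylation genes (123000, 92500, 83500, 71200 and 64900) ranked the replicates alike, from 3 through 1, 2 and 4 to 5. Severed ligament had sums of 16200 to 54200 and of 45200 to 53500 for the latter lists, below all unmanipulated sums. The part of muscle in these falls was not tested.

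**Figure D3:**
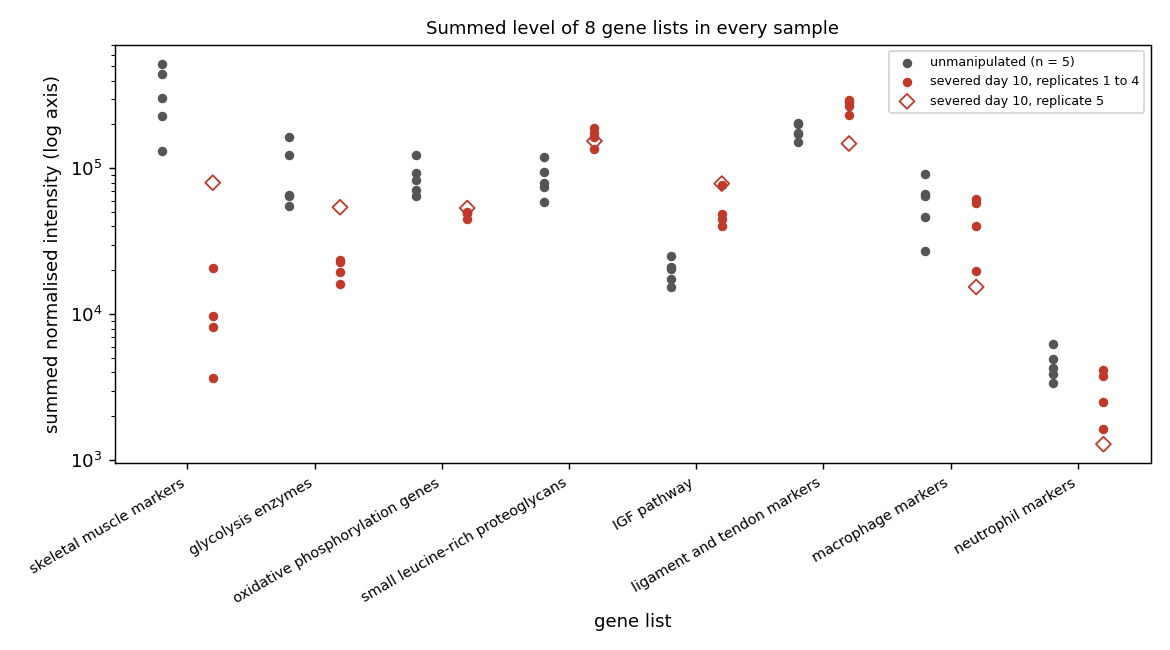
Summed normalised intensity (log axis) of the members of 8 gene lists in each of 5 unmanipulated (grey) and 5 severed day 10 (red, replicate 5 as an open diamond) samples. Muscle, glycolysis and oxidative phosphorylation sums lie below the unmanipulated range in every severed sample, and those of the small leucine-rich proteoglycans and the IGF pathway lie above it.

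Among proteases and their inhibitors the falls were larger than any rise. Mmp3, stromelysin 1, was at 8.11, 8.31, 7.91, 6.74 and 8.57 in severed replicates 1 to 5 and at 11.04, 10.72, 10.00, 10.20 and 9.99 in unmanipulated replicates 1 to 5. The groups did not overlap, and Mmp3 fell by 2.46 ± 0.39 (limma, adjusted p = 0.00536). Mmp13, a collagenase and an edge gene, was above background in 1 severed sample, replicate 5 (8.72), and in all unmanipulated samples (8.33 to 10.91), and fell by 3.45 ± 0.64 with overlapping groups (limma, adjusted p = 0.0118). Mmp14, the membrane collagenase that activates pro-MMP2, did not overlap between groups, at 12.46 to 12.94 in severed replicates 1 to 4 and 14.78 in replicate 5 against 10.77 to 11.86, yet at 1.64 ± 0.45 did not pass (limma, adjusted p = 0.0559). Leaving out that high sample brought it past the threshold at 1.23. Mmp2, gelatinase A, stood at 1.10 ± 0.39 and Ctsk, cathepsin K, an edge gene, at 0.90 ± 0.65. Of 14 matrix proteases 2 fell and none rose (median -0.12).

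Serpina3n, a serine protease inhibitor that rises in acute inflammation in rodents, was at 6.88, 8.85, 8.30, 7.83 and 7.99 in severed replicates 1 to 5 and at 11.49, 12.02, 10.81, 12.17 and 11.12 in unmanipulated replicates 1 to 5. It is an edge gene, but the groups were well apart, and it fell by 3.55 ± 0.41 (limma, adjusted p = 0.00175) under every alternative that held it. Timp1, the inhibitor of metalloproteinases, was saturated in 4 of 5 unmanipulated samples (all 5 at 15.50 or higher) and stood at 13.29 to 14.60 in severed ligament, and fell by 2.11 ± 0.31 (limma, adjusted p = 0.00419). Slpi, an inhibitor of neutrophil elastase, fell by 2.50 ± 0.63 (limma, adjusted p = 0.0418), a call lost on leaving out any single sample except severed replicate 3 or 5. A2m was dim in both groups, with a difference of 0.00 ± 0.61. Of 11 inhibitors 3 fell and none rose, with a median of 0.00.

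Markers of inflammatory cells were lower or overlapped, with a pair of exceptions. Cd14, the lipopolysaccharide co-receptor of monocytes, was at 8.46, 8.94, 8.76, 7.15 and 9.30 in severed replicates 1 to 5 and at 10.77, 11.02, 11.57, 11.06 and 10.57 in unmanipulated replicates 1 to 5. It fell by 2.47 ± 0.40 with no overlap (limma, adjusted p = 0.00654), but a dimmer probe of the gene, with a mean of 7.31, stood at only -0.21. Trem2, a lipid receptor of macrophages and osteoclasts, went the other way, at 12.84, 12.28, 11.80, 12.28 and 12.22 against 10.62, 10.75, 10.46, 10.85 and 11.49. The lowest severed value exceeded the highest unmanipulated one, and Trem2 rose by 1.45 ± 0.30 (limma, adjusted p = 0.0197), although not without unmanipulated replicate 1 or 3. Cd68, a lysosomal protein of macrophages and an edge gene, stood at -0.61 ± 0.34 and C1qa at 0.24 ± 0.40. Of 14 macrophage markers 1 fell and 1 rose, with a median of -0.55 and summed intensities of 15400 to 61900 in severed and 27200 to 91500 in unmanipulated ligament, which overlapped.

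S100a9, a calcium-binding protein of neutrophils and an edge gene, lay at 5.64 to 10.46 in severed and 10.04 to 11.68 in unmanipulated samples and fell by 2.90 ± 0.73 (limma, adjusted p = 0.0407). Any single sample left out other than severed replicate 2 ended the call, and its partner S100a8 stood at -0.90 ± 0.80. Of 7 neutrophil markers 1 fell (median -0.73). The chemokine Ccl5 was above background in 2 severed samples and in all unmanipulated ones and fell by 2.75 ± 0.54 (limma, adjusted p = 0.015), from 9.06 to 9.79 down to 5.64 to 8.64. Ccl3 fell by 1.61 ± 0.40 (limma, adjusted p = 0.0392), which held without severed replicate 2, 4 or 5 but not without any other single sample. Cxcl9, an interferon-induced chemokine, was not above background in any unmanipulated sample and was above it in 2 severed ones, with severed levels of 6.59 to 8.03. Its difference was 1.39 ± 0.35 (limma, adjusted p = 0.0413), a call lost without unmanipulated replicate 1, 3, 4 or 5 or severed replicate 3 or 4. With most values of both groups below background, the size of this difference is not settled. Cxcl9 was not tested under the 3 other scalings and is not among the 20 named rises followed there. The edge gene Ccl2 was at the lowest level in 2 samples of each group and at 11.82 or more in the others, so no difference could be read (-0.23 ± 2.08). Of 12 chemokine genes 2 fell and 1 rose (median -0.50).

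No gene of the MHC class II, interferon, complement or lymphocyte lists passed. RT1-Da, a class II chain, lay at 12.14 to 12.56 in severed replicates 1 to 4, at 10.97 in replicate 5 and at 10.20 to 11.58 in unmanipulated ligament (1.21 ± 0.40), and passed without replicate 5 at 1.51. Cd74, an edge gene, and RT1-Bb each held a value at the lowest level among bright ones and stood at -0.78 ± 1.05 and -0.07 ± 1.01, and a dimmer RT1-Bb probe with a mean of 8.35 stood at 1.81. Isg15 (-0.33 ± 0.65) and Rsad2 (-0.03 ± 0.60), interferon-induced genes, overlapped, as did the complement genes C3 (-1.45 ± 0.46, limma, adjusted p = 0.0918) and Cfd (-0.12 ± 0.35).

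**Figure D4:**
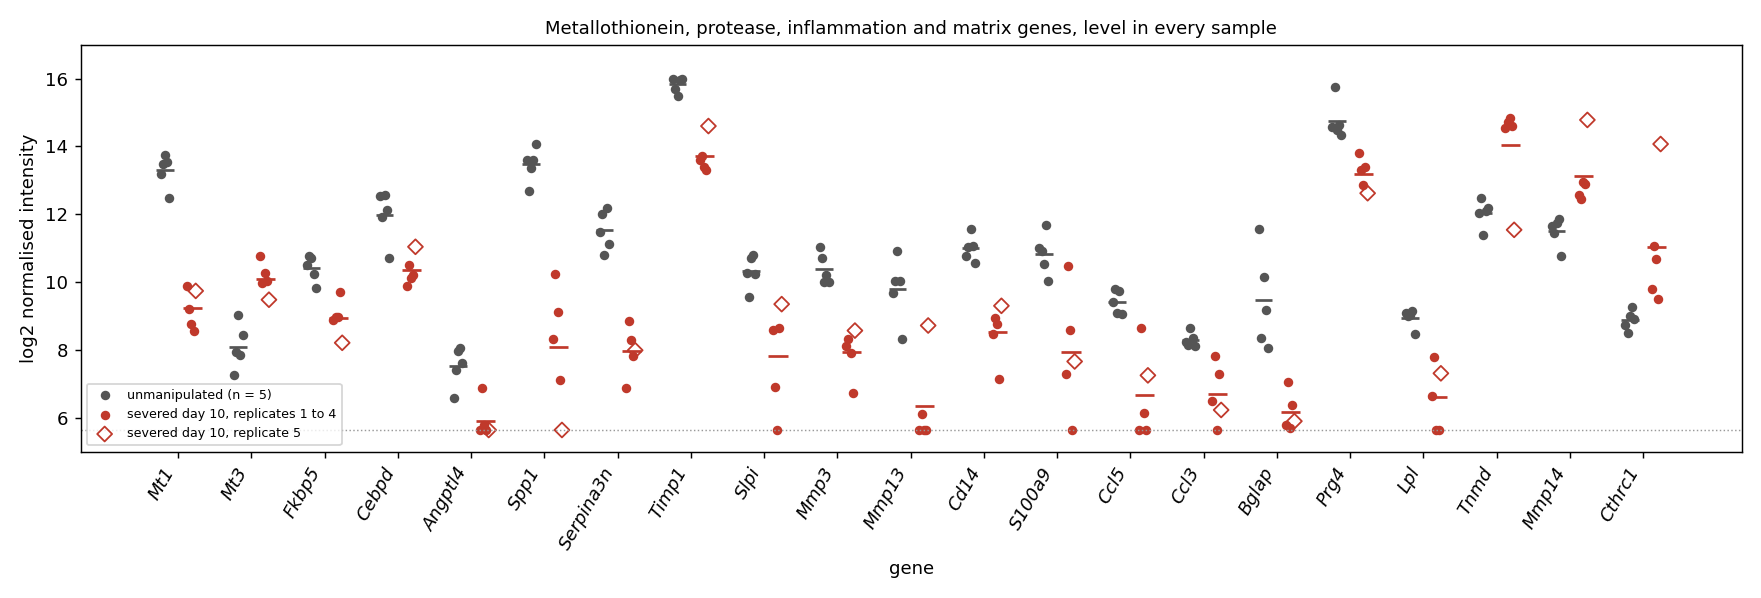
Level (log2 normalised intensity) of 21 genes of the metallothionein, protease, inflammation and matrix groups in each of 5 unmanipulated (grey) and 5 severed day 10 (red, replicate 5 as an open diamond) samples. Short lines are group means and the dotted line is the lowest level, 5.64. Mt1, Serpina3n, Timp1 and Cd14 show a gap between the groups, and replicate 5 stands apart in Tnmd, Mmp14 and Cthrc1.

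Markers of other tissues that a dissected ligament can carry moved little, with a few exceptions. Lpl, lipoprotein lipase of fat and muscle, fell by 2.35 ± 0.43 (limma, adjusted p = 0.011) and is an edge gene, while the adipocyte genes Adipoq (-1.14 ± 0.34) and Fabp4 (-1.31 ± 0.37, edge gene, groups not overlapping) did not pass, with adjusted limma p of 0.0764 and 0.0623. Without severed replicate 5 Fabp4 passed at -1.54. Bglap, osteocalcin of osteoblasts, fell by 3.30 ± 0.61 (limma, adjusted p = 0.0111), from 8.06 to 11.57 in unmanipulated to 5.71 to 7.04 in severed ligament, 2 severed samples being above background. Ibsp (-1.02 ± 0.56) and Acp5 (0.87 ± 0.49) of bone overlapped. The cartilage gene Sox9 stood at 1.07 ± 0.35 and Col2a1, dim in both groups, at -0.03 ± 0.68. Tagln of smooth muscle and myofibroblasts stood at 0.59 ± 0.41. The red cell genes Hbb-b1 (-0.68 ± 1.11) and Alas2 (0.02 ± 0.37) were near saturation in most samples and both are edge genes, and Rhag, a membrane protein of red cells and an edge gene, fell by 1.85 ± 0.44 (limma, adjusted p = 0.0327), a call lost without unmanipulated replicate 1, 2 or 4 or severed replicate 1, 3, 4 or 5. No endothelial marker passed (7 tested, median -0.36).

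In the cell cycle list 0 of 16 genes passed and 15 had negative differences (median -0.73). Cdk1, the mitotic kinase, lay at 8.53 to 11.32 in unmanipulated samples and at 5.64 to 8.75 in severed replicates 1 to 4, with replicate 5 at 11.10 (-1.80 ± 0.87). Without that sample Cdk1 passed at -2.68. Pcna, the replication clamp, stood at -0.75 ± 0.46. Among 16 genes of the endoplasmic reticulum and secretory pathway 1 fell: Sec23a, of the COPII vesicle coat and an edge gene, lay at 7.02 to 7.21 in unmanipulated samples and near the lowest level in severed ones (-1.42 ± 0.23, limma, adjusted p = 0.00678), above background in 1 severed sample. A dimmer Sec23a probe, with a mean of 5.85, stood at 0.2. Hspa5, the chaperone BiP and an edge gene, held a lowest value in each group and stood at -0.67 ± 1.84. The ribosomal protein genes Rplp0 (-0.26 ± 0.59) and Rps6 (0.19 ± 0.23, saturated in all 10 samples) gave no call, nor did any of 19 in their list or of 18 immediate early genes, among them Fos (-0.25 ± 0.61).

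**Figure D5:**
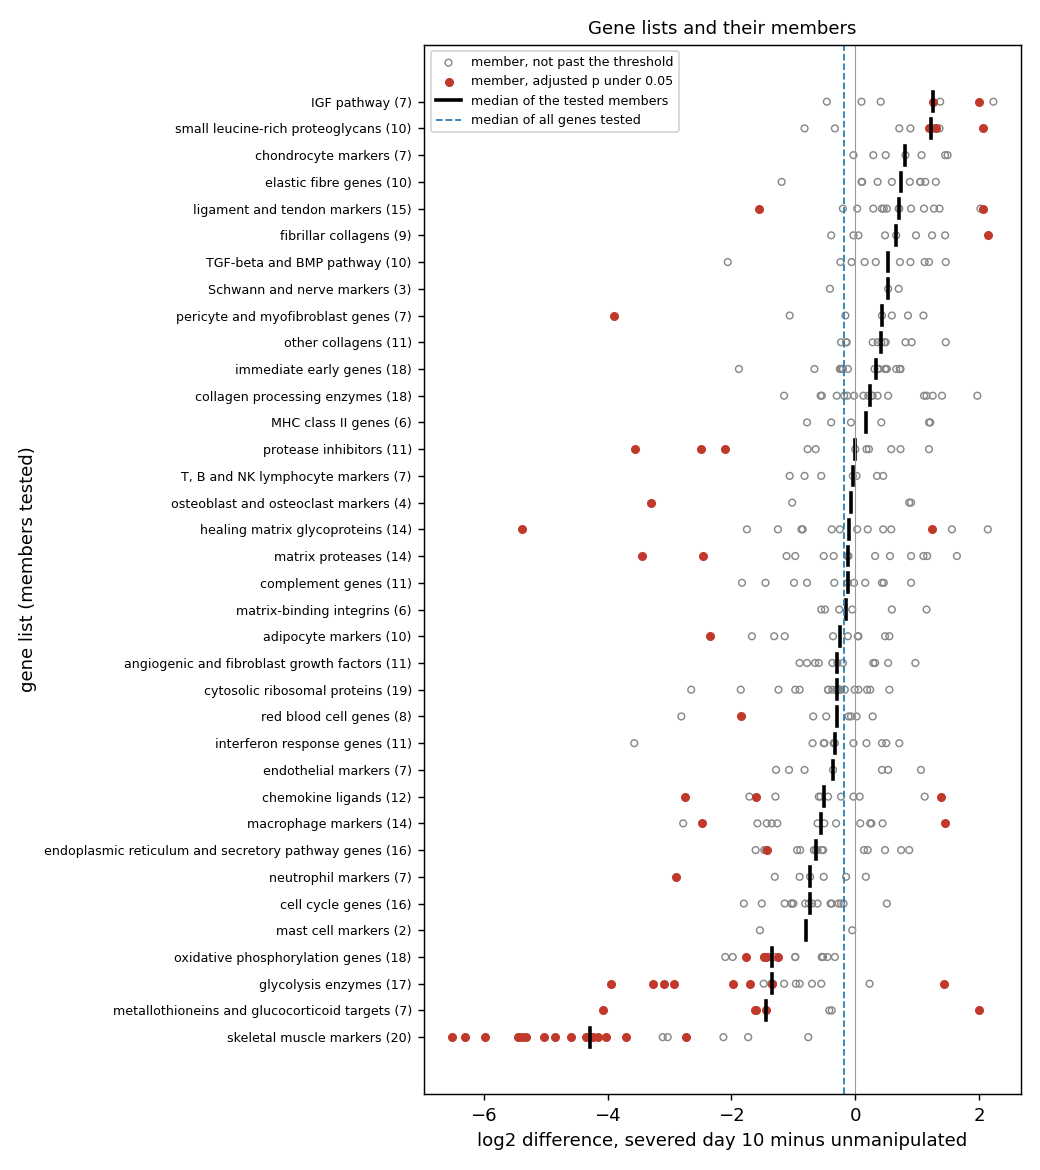
Log2 difference, severed day 10 minus unmanipulated, of each tested member (circles, filled where the limma adjusted p was under 0.05) of 36 gene lists, with the median of each list (black bar) and of all 14775 genes (dashed line, -0.19). Muscle markers reach the lowest median, -4.29, and the IGF pathway the highest, 1.26.

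The day 10 severed samples were also tested against severed ligament of day 14, 5 samples in the same dye, which had the same operation and drugs. Of 16140 genes tested 0.663% were higher on day 10 and 2.45% lower, 3.11% in all, and this test and that against unmanipulated ligament share the day 10 samples. Ampd1 was at 5.69 to 9.96 on day 10 and at 12.16 to 15.14 on day 14, a difference of -7.17 ± 0.75 (limma, adjusted p = 0.000373), with unmanipulated ligament at 12.16 to 14.40 in the same fit. The day 14 values spanned the unmanipulated range, and the day 10 values lay below it. Tnnc2 (-5.90 ± 0.67) and Trdn (-6.32 ± 0.81) differed in the same direction, as did Ckmt2, Myh1, Abra and Asb2, at -5.79, -4.90, -4.05 and -4.63. Actn3, Cox8b, Ckm, Myl1, Myot, Pdlim3 and Mybpc1 had differences of the same sign, from -4.07 to -1.89, but did not pass. Their adjusted limma p lay between 0.0554 and 0.385. Pdlim3 was still lower on day 14 than in unmanipulated ligament (-3.27, limma, adjusted p = 0.0225). Higd1b, a hypoxia-inducible domain protein of pericytes, was at 8.50 to 8.93 on day 10, 8.40 to 8.76 in unmanipulated ligament and 10.50 to 11.05 on day 14 (-1.99 ± 0.23, limma, adjusted p = 0.00044). Srebf2, a regulator of cholesterol synthesis, was at or near the lowest level on day 10 and in unmanipulated ligament and at 8.01 to 9.80 on day 14 (-3.10 ± 0.35).

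Higher on day 10 than on day 14 were Xpo6, an exporter of actin from the nucleus (2.82 ± 0.46), Ist1, of membrane scission (1.82 ± 0.32), Inhba (2.99 ± 0.53), Plac9 (3.22 ± 0.59) and Dagla (1.92 ± 0.37), with adjusted limma p between 0.00507 and 0.0139. Inhba, an edge gene, lay at 9.65 to 10.63 on day 10 and at 5.64 to 8.21 on day 14, with unmanipulated ligament between, at 7.29 to 9.43. Day 14 replicate 1 had the lowest median window correlation with the other columns of this fit (0.39). It held the lowest day 14 value, alone or shared, of Inhba (5.64), the edge gene Plac9 (6.83), Igfbp6 (8.10), Cdkn1c (7.21) and Spp1 (5.64). The other genes that had risen most on day 10 did not pass against day 14, and some of them were apart. Igfbp6 did not overlap, at 12.63 to 13.10 on day 10 and 8.10 to 12.05 on day 14 (1.70 ± 0.61, limma, adjusted p = 0.134), nor did Ogn, at 12.51 to 13.74 on day 10 and 13.95 to 14.84 on day 14 (-1.12 ± 0.35, limma, adjusted p = 0.0861). Mcm3ap stood at -1.61 ± 0.46 (limma, adjusted p = 0.0682) and Prr3 at -1.68 ± 0.67. Ocm (0.75 ± 1.06), Caskin2 (-0.70 ± 0.93), Cdkn1c (0.40 ± 0.81) and Fam180a (0.36 ± 0.40) overlapped. Kazald1 stood at 0.77 ± 0.31 (limma, adjusted p = 0.178), Col11a1 at -0.33 ± 0.29, Mt3 at -0.12 ± 0.43, Fkbp7 at -0.04 ± 0.31 and Vkorc1 at 0.33 ± 0.32. Spp1 was low on both days, with a difference of -1.36 ± 0.91 and a day 14 mean of 9.30 against 13.34 in unmanipulated ligament.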

How the data were processed

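Expression was measured with rat whole-genome arrays made by Agilent. Per the file headers, the deposited matrix holds for each spot and channel the median foreground minus background intensity with a flag, and the series' matrix of values is a log2 intensity per column, deposited by the authors, that follows the log2 of the array matrix plus a constant per column of unstated origin, with nearly all spots not found left empty (column medians 6.58 to 7.52). How these values were normalised is not given in the sources used here. Of 44289 spots, 2917 control spots were left out, and the other 41372 carried 41012 probes. Of these probes 45.3% were named through a RefSeq gene table (assembly GRCr8), used for names and promoter sequences.

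The 10 columns were quantile-normalised. Gene spots in file order were divided into windows of 500, and a window was left out where its Spearman correlation with the median of the other columns was under 0.5 of that column's median, which removed 500 spots of severed replicate 4. In the fit with day 14 the same rule also removed 1000 spots of day 14 replicate 1. After a floor of 50 values were put on the log2 scale. Probes over 100 in at least 3 columns, with 3 values per group, were kept, and the brightest probe stood for its gene. Groups were compared with limma 3.58.1 (R 4.3.3, lmFit and eBayes) and Benjamini-Hochberg adjustment over all genes, threshold 0.05. An exact permutation test over the samples was added for single genes. The limma steps were run beforehand on simulated data with the spread of the unmanipulated columns in both groups. The spread of the severed columns was not simulated, so error rates under it were not checked. The median SE was 0.43. A spot counted as above background when it exceeded the 95th percentile of the negative controls of its column, and as saturated at 60000 or more. Precision is limited by the 10 arrays and by their dim signal.

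Named were the 15 largest rises and falls among named genes past the threshold whose groups did not overlap and whose higher mean was at least 8, the anchor genes of 36 gene lists with up to 4 further called members each, and the 5 lowest p per direction for day 10 against day 14; a few of these genes are not reported here. The members and lists were chosen with earlier results of these data known. Per the labels' protocols each sample is the ligament of its own animal. Replicate numbers did not pair the samples: same-number correlations ran from -0.13 to 0.15. Alternatives covered scaling, floor, filters, probe choice, the prior, the series matrix, a replicate block, all 72 columns with a dye term and each replicate left out. Chosen after seeing the data were windows in the order of the file's reference numbers, the edge of the array (reference numbers up to 10320) left out, severed replicates 4 and 5 both left out, and 72 columns less 2 misread ones without a dye term.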

Additional observations from a re-analysis of the deposited data

Results flagged for a closer look

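In 33 of the 254 groups of 5 values looked at for the named genes, a single sample lay farther from the others than Dixon's 95% critical value for 5 samples (0.71) allows, and chance alone marks about 1 in 20 groups. Severed replicate 5 was that sample in 18 of them. It lay below the other 4 severed samples in Tnmd (11.54), Omd (9.70), Thbs4 (15.67), RT1-Da (10.97), Isg15 (7.45), Itgb1 (6.77) and the edge genes Lox and Hspa5 (5.64 each). It lay above them in Ampd1 (10.13), Gapdh (13.44), Atp5mc1 (11.54), Col5a1 (13.18), Col4a1 (12.63), Fn1 (15.38), Mmp13 (8.72), Mmp14 (14.78), Tagln (10.55) and Sec23a (6.00). That column had the highest median intensity of the 10 and the highest muscle sum of the severed group, and the part of either in these values was not tested.

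The other severed samples that stood apart were replicate 4 in the edge genes Ctsk (9.43), Cd74 (5.64) and Hbb-b1 (9.47), replicate 3 in Igf1 (14.52) and, by a margin under the saturation of its spots, Rps6 (15.99), and replicate 2 in Angptl4 (6.87) and Rhag (7.06), where the others were at or near the lowest level. Among unmanipulated samples replicate 1 stood apart in Mcm3ap (9.40), Col11a1 (10.31) and Hspa5 (5.64), replicate 2 in Fmod (14.60), Prg4 (15.76) and Lum (10.61), replicate 3 in Acp5 (12.31) and replicate 5 in Lpl (8.48).

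Genes named for their difference from unmanipulated ligament also differed between day 10 and day 14 severed ligament by limma's test of that difference: Plac9 (3.22) and Dagla (1.92) were higher on day 10, and Ckmt2 (-5.79), Myh1 (-4.90), Ampd1 (-7.17), Abra (-4.05), Asb2 (-4.63), Trdn (-6.32) and Tnnc2 (-5.90) were lower.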

How the results depend on the processing

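For day 10 severed against unmanipulated ligament, 139 genes were higher and 654 lower. The count of higher genes moved to 11 with median scaling, 25 in the series matrix, 220 with an intensity trend and robust prior, 418 with 72 columns less 2 misread ones and no dye term, and 272 without severed replicates 4 and 5, both of these last chosen after seeing the data. The count of lower genes moved to 2818 with 75th percentile scaling, 5656 with median scaling, 4673 in the series matrix, 414 with no filter on dim probes and 226 with 72 columns and a dye term. The share of calls that were lower, 82.5%, became 95.7%, 99.8% and 99.5% under the 3 scalings, 60.1% with 72 columns and a dye term, 61.8% with 72 less 2 columns, 69.3% without severed replicate 5 and 70.8% without severed replicates 4 and 5. Relative to the shift of all genes, the 3 scalings gave 470 higher and 736 lower, 75 and 269, and 102 and 278. Leaving out each replicate in turn gave 36 to 390 higher and 287 to 976 lower, the extremes without unmanipulated replicate 3 for both low counts, severed replicate 5 for 390 and severed replicate 2 for 976. The replicate block, whose numbers did not pair the samples (only replicate 2 correlated best with its own number in both directions), gave 12 higher and 168 lower. Against day 14 the counts became 41 and 1387 with 75th percentile scaling and 64 and 249 with the replicate block, and ranged from 43 to 247 and from 199 to 510 when each replicate was left out, both low counts without day 14 replicate 2, 247 without day 14 replicate 5 and 510 without day 14 replicate 1. Relative to the shift of all genes, 1 named gene turned sign under the alternatives run with a call in the main or the alternative fit. This was RT1-Bb, at 1.55 with 72 less 2 columns. Without that allowance 3, 8 and 12 of the 20 named rises turned negative with the 75th percentile, median scaling and the series matrix. The cause of these moves was not tested. The dim signal limits the low genes: where the values of a group sit at the lowest level, the size of a difference is uncertain. The floor itself can make it too small. Relative to the shift, however, the falls of Sec23a, Rhag and Angptl4 were smaller with 75th percentile and with median scaling, while those of Myl1 and Myot were larger. Separately, 14 of the named genes had a value at the lowest level beside a bright one of the same group. There the difference can be enlarged, reduced or turned in sign.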
